A study of Mus musculus with 18 samples.

Results

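*S100a8*, *S100a9*, *Retnlg*, *Csf3r*, *Ngp*, *Ltf*, *Mmp8*, *Mmp9*, *Trem1* and *Fpr1* are transcripts by which neutrophils are recognized in mouse tissue RNA. These 10 genes were taken by name, and each was found once among the 45706 genes counted in every kidney. Whole kidneys of 18 young adult male C57BL/6 mice were sequenced 12 h after both renal pedicles had been clamped for 22.5 min, and every group below carries this injury. *Cxcl12* KO mice (n = 5) were homozygous for a floxed *Cxcl12* allele and carried both Pax8rtTA and TetOCre, and *Cxcl12* Control mice (n = 3) had the same floxed allele with Pax8rtTA alone. *Myc* KO mice (n = 5) and *Myc* Control mice (n = 5) were the corresponding pair with a floxed *Myc* allele. All 4 groups received doxycycline followed by a washout. Pax8 directs the recombinase to tubular epithelium, and neutrophils and other cells that do not use this promoter keep the floxed gene. The kidneys were perfused with PBS before freezing. No uninjured kidney was analysed here.

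Neutrophils are short-lived phagocytes of the blood that enter the kidney within hours of ischemic injury. Their granule proteins are made in sequence while the cells mature in the bone marrow, where transcripts of primary granule enzymes come first, those of specific granule proteins later, and those of gelatinase granules, chemoattractant receptors and alarmins last. *Ngp* and *Ltf* belong to the specific granule stage, and mature neutrophils carry abundant *S100a8* and *S100a9* RNA. Neutrophils are drawn by CXCR2 ligands such as CXCL1 and CXCL2, and CXCL12 is the chemokine that holds them in the marrow.

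The members fall into 3 roles. *S100a8* and *S100a9* encode the subunits of calprotectin, a calcium- and zinc-binding alarmin of the neutrophil cytosol. *Ngp* (neutrophilic granule protein), *Ltf* (lactoferrin, an iron binder), *Mmp8* (neutrophil collagenase) and *Mmp9* (gelatinase B) encode granule proteins, and *Retnlg* encodes a secreted resistin-like protein. *Csf3r* (receptor of granulocyte colony-stimulating factor), *Fpr1* (receptor of formylated peptides from bacteria and mitochondria) and *Trem1* (an amplifier of inflammatory signalling) encode receptors. *S100a8* (ENSMUSG00000056054) lies on the plus strand of chr3:90668978-90670035 of GRCm38, and *S100a9* (ENSMUSG00000056071) lies 22.6 kb away on the minus strand of chr3:90692632-90695721. *Ngp* (chr9:110419747-110423012) and *Ltf* (chr9:111019271-111042767) lie 596 kb apart, and *Mmp8* (chr9:7558456-7568485) is on the same chromosome. *Fpr1* (chr17:17876471-17883940) and *Trem1* (chr17:48232768-48246924) share a chromosome, while *Retnlg* (chr16:48872621-48874496), *Csf3r* (chr4:126024550-126044440) and *Mmp9* (chr2:164940780-164955850) do not. In the annotation no member overlaps another gene.

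The promoters of 4 members are shown because *S100a8* and *S100a9* varied together from kidney to kidney while *Ngp* and *Ltf* followed a pattern of their own. Each window holds the 250 bases before the RefSeq start site on GRCm38.p6, read 5′ to 3′ on the strand of the gene. Capitals mark matches, on either strand, to TTNNGNAA, the letters of a C/EBP motif, or to GAGGAA, those of a PU.1 motif. C/EBP proteins and PU.1 are the transcription factors of granulocyte development. The windows are chr3:90668821-90669070 (plus strand) for *S100a8*, chr3:90695722-90695971 (minus strand) for *S100a9*, chr9:110419558-110419807 (plus strand) for *Ngp* and chr9:111019042-111019291 (plus strand) for *Ltf*.
S100a8: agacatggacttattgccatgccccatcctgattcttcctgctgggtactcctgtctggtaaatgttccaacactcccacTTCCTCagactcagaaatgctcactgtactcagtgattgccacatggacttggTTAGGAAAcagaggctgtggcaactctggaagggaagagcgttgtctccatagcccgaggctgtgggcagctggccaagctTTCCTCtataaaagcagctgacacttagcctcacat
S100a9: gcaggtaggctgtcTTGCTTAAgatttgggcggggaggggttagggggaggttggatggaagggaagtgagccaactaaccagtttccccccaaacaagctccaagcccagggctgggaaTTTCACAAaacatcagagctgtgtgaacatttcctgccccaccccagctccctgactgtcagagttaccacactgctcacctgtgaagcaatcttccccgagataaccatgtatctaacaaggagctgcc
Ngp: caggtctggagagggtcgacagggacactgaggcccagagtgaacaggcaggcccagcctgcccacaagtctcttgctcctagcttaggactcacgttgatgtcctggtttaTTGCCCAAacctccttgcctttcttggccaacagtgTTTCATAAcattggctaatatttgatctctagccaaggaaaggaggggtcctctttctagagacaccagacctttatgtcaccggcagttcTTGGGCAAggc
Ltf: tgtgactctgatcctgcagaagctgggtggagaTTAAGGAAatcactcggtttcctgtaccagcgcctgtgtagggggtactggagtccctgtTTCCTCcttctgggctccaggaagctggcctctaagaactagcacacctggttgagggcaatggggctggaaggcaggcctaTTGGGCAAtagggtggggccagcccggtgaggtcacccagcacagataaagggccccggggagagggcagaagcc
A C/EBP match was found in 8 of the 9 members with a RefSeq window, all but *Csf3r*, and in 36.8% of the 250-base windows of all 32851 RefSeq promoters. PU.1 matches were found in 5 of the 9, *S100a8*, *Csf3r*, *Ltf*, *Mmp8* and *Trem1*, against 23.3% of all promoters. Both kinds were present in 4 of the 9 members and in 8.87% of all promoters. *S100a8* had 1 C/EBP match, 117 bases before its start site, and 2 PU.1 matches. *S100a9* had 2 C/EBP matches and *Ngp* 3, both with no PU.1 match in this window, and *Ltf* had 2 C/EBP matches and 1 PU.1 match. The RefSeq start site of *S100a8* lies 93 bases inside the annotated gene. A match is a description of the letters, and binding was not measured.

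The kidneys had 12918220 to 29749500 counts on genes, and the members took 410 to 8055 of them, or 0.00238% to 0.0301%. The share of unmapped reads was under 5% in 6 kidneys (*Cxcl12* KO 1 and 2, *Myc* Control 1 and 3, *Myc* KO 3 and 5), and these were also sequenced more deeply than the other 12. No *Cxcl12* Control kidney was among them, and the labels name no batch. *Cxcl12* measured 26.3 to 40.9 CPM in its KO kidneys and 44.9 to 60.5 in their controls, and *Myc* 26.6 to 37.0 against 79.7 to 117, with no overlap in either cohort. CPM are counts scaled to library size after TMM scaling over all 18 kidneys. In whole-kidney RNA, fewer neutrophils and less RNA per neutrophil cannot be told apart. Member RNA from any other cells that express these genes cannot be separated either.

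*S100a9* was the most abundant member per exon length, at 85.6 ± 59.7 RPKM (SD, n = 18 kidneys), followed by *S100a8* at 42.9 ± 30.5 RPKM and *Retnlg* at 27.2 ± 22.1 RPKM. This order of the 3 leading members held in all 18 kidneys. *Mmp8* had 6.05 ± 5.04 RPKM, *Csf3r* 3.10 ± 2.07 and *Mmp9* 2.60 ± 1.62. *Mmp8* exceeded *Csf3r* in 15 of 18 kidneys and *Csf3r* exceeded *Mmp9* in 14 of 18, so these neighbours changed places between kidneys. *Trem1* had 1.55 ± 1.12 RPKM, *Fpr1* 1.05 ± 0.819, *Ngp* 0.930 ± 0.882 and *Ltf* 0.123 ± 0.0730. *Fpr1* exceeded *Ngp* per length in 12 of 18 kidneys. Calprotectin transcripts made up 51.5% to 61.7% of the summed CPM of the members in each kidney. *Ltf* was nearly absent, with 2 to 27 counts per kidney, *Ngp* had 2 to 73 and *Fpr1* 2 to 89, and these 3 members carry the largest counting error.

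The summed CPM of the members ordered the groups in the same way as most single members did. *Cxcl12* Control kidneys had 22.7, 27.1 and 30.3 CPM for replicates 1 to 3. *Cxcl12* KO kidneys had 46.6, 34.8, 152, 149 and 62.6 CPM for replicates 1 to 5. *Myc* Control kidneys had 56.5, 151, 273, 88.4 and 144 CPM, and *Myc* KO kidneys had 181, 162, 309, 291 and 216 CPM. The 3 *Cxcl12* Control kidneys were the lowest of all 18, *Cxcl12* KO and *Myc* Control kidneys overlapped, and only *Myc* Control 3 reached the range of the *Myc* KO kidneys. Group means stood in the order *Cxcl12* Control, *Cxcl12* KO, *Myc* Control, *Myc* KO for 9 of the 10 members, with *Ngp* the exception.

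**Figure D1:**
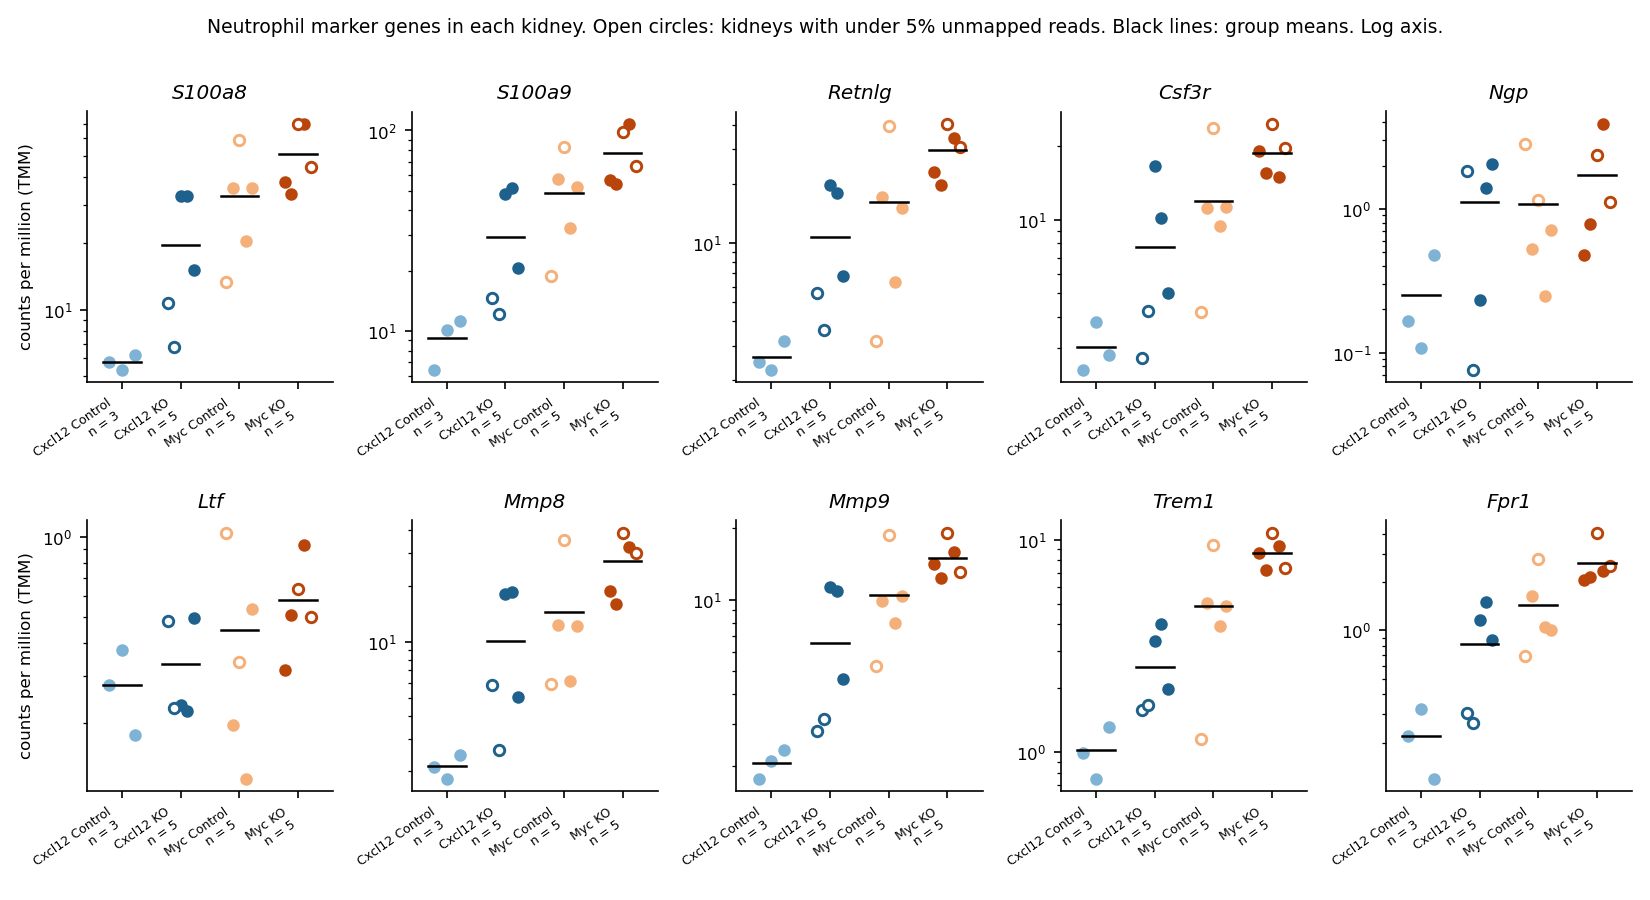
Level of each member in every kidney, in CPM on a log axis, by genotype group, with group means as black lines and open circles for the kidneys with under 5% unmapped reads. For *S100a8* the 3 *Cxcl12* Control kidneys sit between 5.33 and 6.22 CPM, below all other kidneys, and the *Myc* KO kidneys between 33.6 and 69.9 CPM.

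The alarmin transcripts are given first. *S100a8* measured 5.81, 5.33 and 6.22 CPM in *Cxcl12* Control kidneys 1 to 3 and 10.7, 6.78, 32.9, 32.9 and 15.1 CPM in *Cxcl12* KO kidneys 1 to 5. In *Myc* Control kidneys 1 to 5 it measured 13.3, 35.6, 58.8, 20.6 and 35.9 CPM, and in *Myc* KO kidneys 38.1, 33.6, 69.9, 69.4 and 44.5 CPM. Every *Cxcl12* KO kidney lay above every *Cxcl12* Control kidney, although *Cxcl12* KO 2 did so by a small margin. *S100a9* followed it closely, with 6.42 to 11.2 CPM in *Cxcl12* Control, 12.2 to 51.4 in *Cxcl12* KO, 18.9 to 83.1 in *Myc* Control and 54.2 to 108 in *Myc* KO kidneys. The ratio of *S100a9* to *S100a8* CPM was 1.105 to 1.91 in the 18 kidneys.

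Of the granule genes, *Mmp8* measured 2.10, 1.83 and 2.45 CPM in *Cxcl12* Control kidneys, 5.85, 2.61, 18.05, 18.6 and 5.02 CPM in *Cxcl12* KO kidneys, 5.94, 12.3, 35.3, 6.16 and 12.1 CPM in *Myc* Control kidneys, and 18.7, 15.9, 38.6, 32.3 and 30.1 CPM in *Myc* KO kidneys. *Cxcl12* KO 3 and 4 stood well above the other *Cxcl12* KO kidneys, and *Myc* Control 3 above the other *Myc* Control kidneys. *Mmp9* ranged from 1.77 to 2.33 CPM in *Cxcl12* Control, from 2.82 to 11.3 in *Cxcl12* KO, from 5.28 to 18.6 in *Myc* Control and from 12.3 to 19.1 in *Myc* KO kidneys. *Retnlg* ranged from 2.26 to 3.17, 3.599 to 19.8, 3.16 to 39.3 and 19.8 to 40.4 CPM in the same order, so that *Myc* Control kidneys covered nearly the whole range.

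*Ngp* did not keep this order of kidneys. It measured 0.166, 0.108 and 0.478 CPM in *Cxcl12* Control kidneys 1 to 3, 1.85, 0.0758, 0.233, 1.39 and 2.05 CPM in *Cxcl12* KO kidneys 1 to 5, 2.81, 0.524, 1.15, 0.246 and 0.712 CPM in *Myc* Control kidneys 1 to 5, and 0.475, 0.789, 2.38, 3.91 and 1.12 CPM in *Myc* KO kidneys 1 to 5. *Myc* Control 1, the lowest kidney of its group in 8 of the 10 members, was the highest of its group for *Ngp* and for *Ltf* (1.04 CPM, the highest *Ltf* value of all 18). For every 100 *S100a8* counts there were 21.1 *Ngp* counts in *Myc* Control 1, 17.3 in *Cxcl12* KO 1 and 13.6 in *Cxcl12* KO 5, and from 0.709 to 7.69 in the other 15 kidneys.

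**Figure D2:**
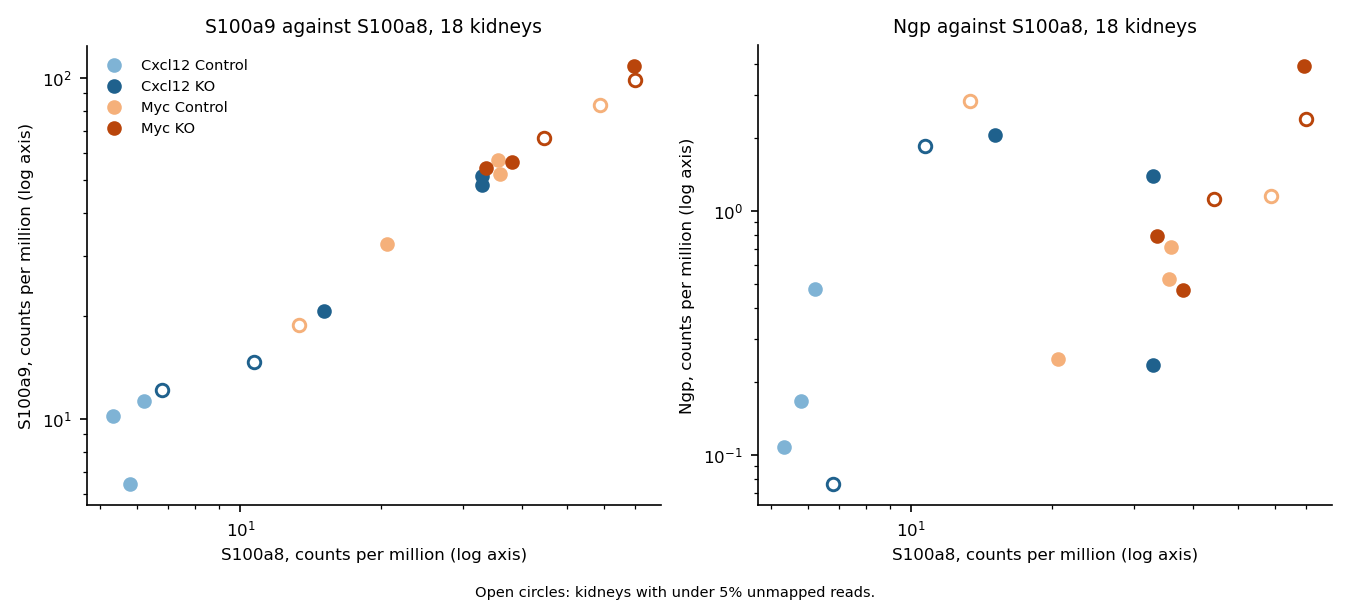
CPM of *S100a9* (left) and *Ngp* (right) against CPM of *S100a8* in the 18 kidneys, both axes logarithmic, colours by genotype group and open circles for kidneys with under 5% unmapped reads. *S100a9* runs along a single line with *S100a8*, while *Ngp* is scattered, with *Myc* Control 1 at 13.3 CPM of *S100a8* and 2.81 CPM of *Ngp*.

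The receptors followed the alarmins at lower levels. *Trem1* measured 0.996, 0.754 and 1.32 CPM in *Cxcl12* Control kidneys, 1.58, 1.67, 3.35, 4.00 and 1.98 CPM in *Cxcl12* KO kidneys, 1.16, 5.05, 9.44, 3.94 and 4.86 CPM in *Myc* Control kidneys, and 8.62, 7.21, 10.8, 9.31 and 7.33 CPM in *Myc* KO kidneys. All *Myc* KO kidneys lay above all *Cxcl12* KO kidneys for *Trem1*. *Csf3r* ranged from 2.43 to 3.82, 2.73 to 16.6, 4.20 to 23.8 and 14.9 to 24.7 CPM in *Cxcl12* Control, *Cxcl12* KO, *Myc* Control and *Myc* KO kidneys, and *Fpr1* from 0.120 to 0.323, 0.265 to 1.498, 0.694 to 2.78 and 2.06 to 4.07 CPM. For both, *Cxcl12* KO and *Cxcl12* Control kidneys overlapped.

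Loss of tubular *Cxcl12* was compared with its controls to ask whether these transcripts differ after the injury. All 9 members that passed the filter on low counts had a higher fitted level in *Cxcl12* KO kidneys, from 2.42-fold for *Trem1* to 4.63-fold for *Mmp8*, and none passed the adjusted threshold of 0.05 (adjusted p from 0.187 to 0.373 by edgeR's quasi-likelihood test). *Ltf* did not pass the filter, and without the filter it was 1.19-fold (edgeR, unadjusted p = 0.660). *Ngp* and *Fpr1*, with 2 to 8 and 2 to 6 counts in control kidneys, passed through *Cxcl12* KO kidneys alone. The filter thus favoured a higher KO level in both, and they stay in the counts and medians over 9 members. *S100a8* had a value of 1.74 on the log2 scale (edgeR, standard error 0.49, adjusted p = 0.189), with a 95% confidence interval from 1.59-fold to 7.07-fold. For *Mmp8* it was 2.21 (standard error 0.63), for *Retnlg* 2.00 (0.56), for *S100a9* 1.65 (0.49) and for *Csf3r* 1.32 (0.53). Of all 15154 genes tested, 0 passed, or 0%, while 1976 (13.04%) and all 9 members had an unadjusted p under 0.05. DESeq2 called 358 genes, or 1.28% of the 27956 with a count, and 1 member, *Mmp9* (adjusted p = 0.0127). The median log2 fold change was 1.74 over the 9 members and 0.00 over all genes, and without the filter it was 1.69 over all 10 members. In 6 of the 9, *S100a8*, *S100a9*, *Retnlg*, *Mmp8*, *Mmp9* and *Trem1*, every KO kidney lay above every control kidney, as was the case for 4.96% of all genes tested.

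The 2 *Cxcl12* KO kidneys with under 5% unmapped reads were those with the least member RNA of their group. With a term for under 5% unmapped reads, edgeR called 6 of the 9 members (*S100a8*, *S100a9*, *Retnlg*, *Mmp8*, *Mmp9* and *Fpr1*) and 0.812% of all genes. The *S100a8* log2 fold change was then 2.21 (edgeR adjusted p = 0.0164). No *Cxcl12* Control kidney had under 5%, so this term takes the same 2 KO kidneys out of the contrast and cannot adjust for mapping. Without these 2 kidneys the *S100a8* value was also 2.21, and edgeR called 4 of 8 members and 0.535% of all genes. Either way the KO kidneys lowest in member RNA are set aside. Without the filter on low counts edgeR called 4 of 10 members and 0.765% of the genes with a count. *Cxcl12* KO 3 and 4, the kidneys with the most member RNA, also had the most red cell RNA of their cohort, with 125 and 163 summed CPM over 5 hemoglobin and heme genes against 36.1 to 44.9 in the other *Cxcl12* KO kidneys and 12.5 to 65.3 in the controls. The share of multimapping reads also separated the groups, at 17.0% to 18.6% in *Cxcl12* KO and 16.7% to 16.8% in *Cxcl12* Control kidneys, as did the summed level of 6 tubular injury genes, at 14129 to 22087 against 11308 to 12798 CPM. The part of these measures in the result was not tested. With *Cxcl12* KO 3 left out the median log2 fold change of the 8 members then tested was 1.44, and with *Cxcl12* KO 4 left out that of 7 members was 1.36. The p-values set the group difference against the spread between these kidneys and do not cover differences in unmapped or multimapping reads.

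The same question was asked of tubular *Myc*. Fitted levels of the 9 tested members were 1.42-fold (*Mmp9*) to 1.87-fold (*Mmp8*) higher in *Myc* KO than in *Myc* Control kidneys, and again 0 of 9 passed (adjusted p from 0.183 to 0.590 by edgeR), where 246 of 14936 genes or 1.65% did. *S100a8* had a log2 fold change of 0.64 (standard error 0.34, adjusted p = 0.292 by edgeR), and its interval ran from 0.931-fold to 2.60-fold. *Fpr1* (0.86, standard error 0.35) and *Trem1* (0.81, standard error 0.37) were the 2 members with an unadjusted p under 0.05, as had 21.9% of all genes. The median was 0.65 over the members and 0.00 over all genes. In no member were the groups apart, against 2.05% of all genes with every KO kidney above every control kidney. DESeq2 called 0 members and 1035 genes, or 3.56% of the 29068 with a count.

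A single kidney decided this count. *Myc* Control 3, the deepest library, was the highest control kidney in 8 of the 10 members and had 273 summed CPM against 56.5 to 151 in the other *Myc* Control kidneys. Without it edgeR called 6 of the 9 members (*Retnlg*, *Csf3r*, *Mmp8*, *Mmp9*, *Trem1* and *Fpr1*) and 5.80% of all genes, and the median log2 fold change of the members was 1.08. Leaving out any other kidney of the cohort gave medians from 0.55 to 0.82 and no member called, with 0.139% to 1.83% of all genes.

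**Figure D3:**
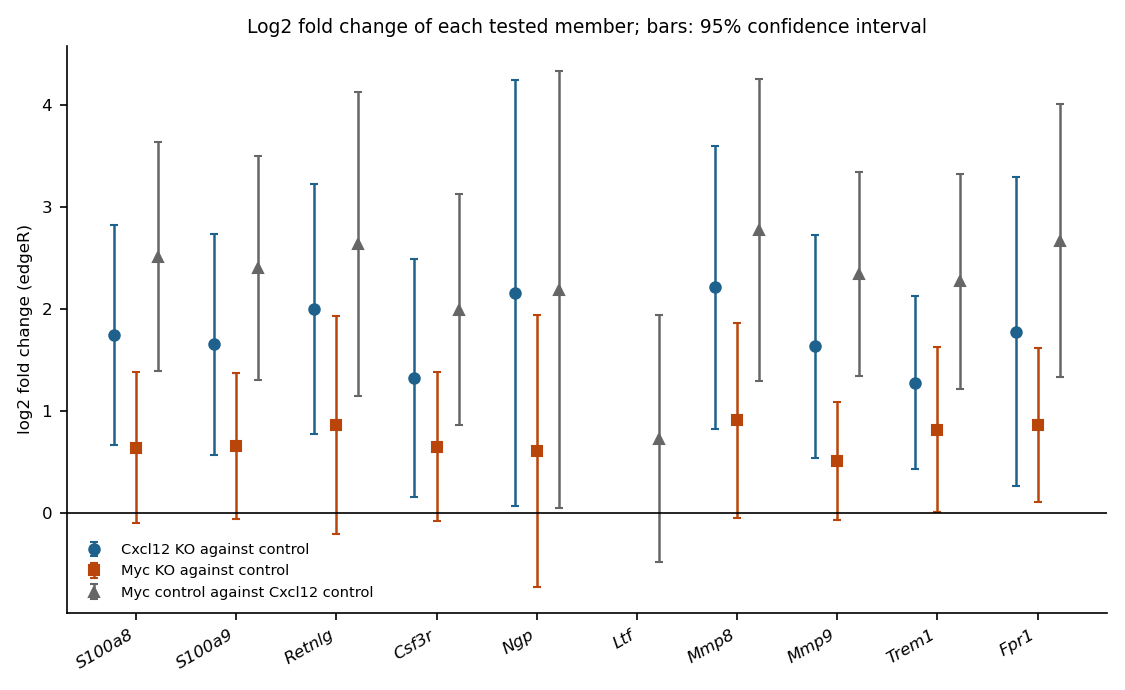
Log2 fold change of each tested member with its 95% confidence interval by edgeR, for *Cxcl12* KO against control (blue circles), *Myc* KO against control (orange squares) and *Myc* control against *Cxcl12* control (grey triangles). The *Cxcl12* KO values lie between 1.28 and 2.21, the *Myc* KO values between 0.51 and 0.91, and in the *Myc* cohort the intervals of *Trem1* and *Fpr1* alone lie above 0.

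The KO effects of the cohorts were not shown to differ in any member. The difference, *Myc* KO effect minus *Cxcl12* KO effect, passed in 0 of 10 members and in 11 of 15903 genes or 0.0692% (edgeR). By edgeR 1812 genes and 0 members had an unadjusted p under 0.05. DESeq2 called 0 members and 313 genes, or 1.03% of the 30346 with a count. For *S100a8* it was -1.11 on the log2 scale with a 95% interval from -2.47 to 0.25, for *Mmp9* -1.13 with an interval from -2.35 to 0.10 and for *Trem1* -0.46 with an interval from -1.76 to 0.84.

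The control groups were compared to order their levels. In *Myc* Control kidneys 6 of the 10 members, *S100a8*, *S100a9*, *Mmp8*, *Mmp9*, *Trem1* and *Fpr1*, were higher than in *Cxcl12* Control kidneys (edgeR), where 1.99% of all genes passed. *S100a8* was 5.69-fold higher (log2 fold change 2.51, standard error 0.54, adjusted p = 0.0215 by edgeR), *Mmp8* 6.83-fold (2.77, 0.71, adjusted p = 0.0488) and *Mmp9* 5.07-fold (2.34, 0.48, adjusted p = 0.0181). *Retnlg* and *Csf3r* had values of 2.63 and 1.99 with adjusted p of 0.0622 and 0.0629, while *Ngp* (2.18, adjusted p = 0.275) and *Ltf* (0.73, adjusted p = 0.554) had wide errors. In 6 members, *S100a8*, *S100a9*, *Csf3r*, *Mmp8*, *Mmp9* and *Fpr1*, all *Myc* Control kidneys lay above all *Cxcl12* Control kidneys, against 6.23% of all genes. *Cxcl12* Control kidneys had 2 to 6 counts of *Fpr1*, 2 to 8 of *Ngp* and 3 to 7 of *Ltf*. These members passed the filter on low counts through other groups, which favoured a lower *Cxcl12* Control level. *Fpr1* stays in both counts of 6. With any 1 of the 3 *Cxcl12* Control kidneys left out no member passed, although the median log2 fold change stayed between 2.24 and 2.52. In these fits 0.302% to 0.75% of all genes passed. Without *Myc* Control 3 only *Mmp9* passed, with 0.744% of all genes. With a term for under 5% unmapped reads 4 members and 1.9% of all genes passed, since *Mmp8* (edgeR adjusted p = 0.0769) and *Fpr1* (0.0557) no longer did. DESeq2 called 8 members and 2.53% of the 30346 genes with a count. Without the filter on low counts edgeR called 8 members and 1.26% of these genes. This comparison shares its kidneys with those above. The floxed allele and the cohort cannot be told apart.

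*Myc* KO kidneys likewise had more member RNA than *Cxcl12* KO kidneys. In 6 members, *S100a8*, *S100a9*, *Retnlg*, *Mmp9*, *Trem1* and *Fpr1*, all 5 *Myc* KO kidneys lay above all 5 *Cxcl12* KO kidneys, as did 4.36% of all genes. This difference was described by its ranges and not tested.

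Within genotype groups, 8 of the members varied together from kidney to kidney. Over 18 kidneys, after subtraction of the group mean of log2 CPM, *S100a8* and *S100a9* were correlated with r = 0.97 (Pearson) and rho = 0.94 (Spearman) (permutation within groups, two-sided, p = 1e-05 for r, the smallest that 100000 draws can give, 0.000112 after Benjamini-Hochberg adjustment over 45 pairs). Without the 2 kidneys farthest from the median of *S100a8* r was 0.96. It was 0.99 within the 6 kidneys with under 5% unmapped reads and 0.93 within the other 12. *S100a8* also went with *Retnlg* (r = 0.96), *Mmp8* (0.95), *Mmp9* (0.94), *Fpr1* (0.85), *Trem1* (0.85) and *Csf3r* (0.83). All 28 pairs without *Ngp* and *Ltf* had r from 0.71 to 0.97 and passed the adjusted threshold (permutation tests, highest adjusted p = 0.0126 for r and 0.0447 for rho). Without the 2 farthest kidneys of each pair the range was 0.64 to 0.96, and within the 12 kidneys with more unmapped reads 0.38 to 0.97, the lowest being *Trem1* with *Fpr1*. Values of a kidney share its library, depth and scaling.

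*Ngp* and *Ltf* went with each other and not detectably with the rest. Their r was 0.68 and their rho 0.68 (permutation within groups, two-sided, p = 0.00368 for r, adjusted p = 0.00613), 0.64 without the 2 farthest kidneys, 0.80 within the 6 kidneys with under 5% unmapped reads and 0.59 within the other 12. The 16 pairs of *Ngp* or *Ltf* with another member had r from -0.53 to 0.26, and 0 of 16 passed (lowest unadjusted permutation p = 0.128). The low counts of *Ngp* and *Ltf* widen the error of these values.

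**Figure D4:**
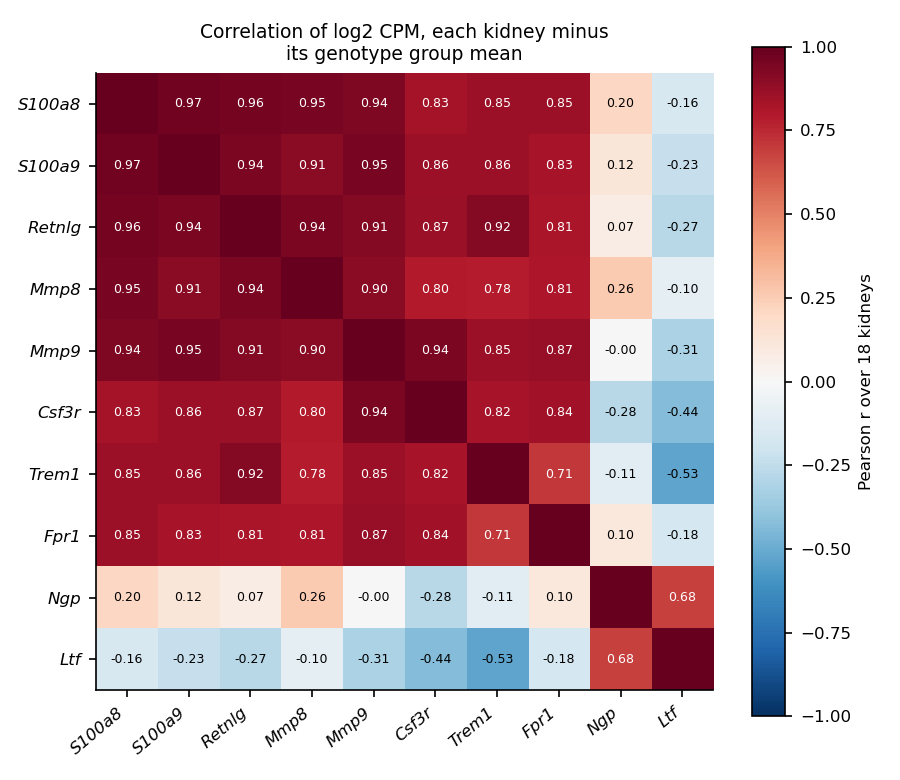
Pearson r between members over 18 kidneys, from log2 CPM minus the mean of the genotype group, on a colour scale from -1 (blue) to 1 (red). The upper 8 members form a block with r from 0.71 to 0.97, and *Ngp* and *Ltf* join each other at 0.68.

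Genes of granulocyte precursors were at the limit of detection. Of *Mpo*, *Elane*, *Prtn3*, *Ctsg*, *Ms4a3* and *Cebpe*, which encode primary granule enzymes and factors of the promyelocyte, *Mpo* and *Ms4a3* had 0 counts in all 18 kidneys. A count of 0 allows up to 3 counts, or 0.101 to 0.232 CPM by depth of the kidney, and covers counting error only. *Elane* reached at most 2 counts, *Ctsg* 1 and *Cebpe* 3, and *Prtn3*, the most abundant, at most 16. The summed level of the 6 genes was 0.111 to 0.377 CPM in *Cxcl12* Control, 0.0620 to 0.233 in *Cxcl12* KO, 0.185 to 0.542 in *Myc* Control and 0.183 to 0.386 in *Myc* KO kidneys. *Camp*, the cathelicidin of specific granules, reached 4 counts.

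Other genes of mature neutrophils were counted alongside. Of 16 such genes, 11 were tested in the *Cxcl12* cohort and 13 in the *Myc* cohort, with 0 called in either, and their median log2 fold changes were 1.32 and 0.65 beside 0.00 for all genes. *Fpr2*, *Ifitm6* and *Asprv1* measured 0.120 to 0.431, 0.0538 to 0.658 and 0.431 to 0.498 CPM in *Cxcl12* Control kidneys. They passed the filter on low counts mainly through *Cxcl12* KO kidneys, which favoured a higher KO level, and they stay in the *Cxcl12* median. *Il1r2*, a decoy receptor of interleukin-1, measured 1.27 to 2.31 CPM in *Cxcl12* Control, 3.11 to 16.2 in *Cxcl12* KO, 4.32 to 33.4 in *Myc* Control and 18.8 to 34.6 in *Myc* KO kidneys. *G0s2*, an inhibitor of lipolysis that is also expressed outside neutrophils, went the other way, with 37.0 to 42.3 CPM in *Cxcl12* Control and 25.7 to 35.3 CPM in *Cxcl12* KO kidneys (log2 fold change -0.37, edgeR adjusted p = 0.238). *Ly6g*, the surface antigen used to sort neutrophils, had at most 25 counts. Of 5 other genes of specific granules, 4 were tested and 0 called in each cohort. Their most abundant genes were *Lcn2*, which injured tubules also make, at 471 to 613 CPM in *Cxcl12* Control and 1281 to 1776 CPM in *Myc* KO kidneys, and *Hp* (haptoglobin), which ranged from 4.84 to 181 CPM.

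The chemokines that draw neutrophils were measured in the same kidneys. Of 10 attractants and growth factors, 8 were tested in each cohort, 0 were called, and all 8 had fitted values above 0 in both. Their medians were 1.24 (*Cxcl12*) and 0.63 (*Myc*). The 8 include *Ppbp* and *Pf4*, which were also listed as platelet genes. *Cxcl1* measured 32.1 to 67.7 CPM in *Cxcl12* Control, 53.8 to 89.1 in *Cxcl12* KO, 78.7 to 143 in *Myc* Control and 88.5 to 168 in *Myc* KO kidneys. *Cxcl2* measured 1.94 to 5.80, 7.16 to 26.5, 19.7 to 54.4 and 36.3 to 61.2 CPM in the same order, and every *Cxcl12* KO kidney lay above every *Cxcl12* Control kidney (log2 fold change 1.85, edgeR adjusted p = 0.122). Between the control groups 5 of the 8 were higher in *Myc* Control kidneys, where 1.99% of all genes passed. Among the 5 were *Cxcl2* (log2 fold change 3.02, edgeR adjusted p = 0.00183) and *Cxcl1* (1.24, edgeR adjusted p = 0.0129).

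Markers of other cells were listed for comparison. Genes of all leukocytes (8 genes), monocytes (8) and phagocyte integrins and NADPH oxidase (8) had medians of 0.30, 0.26 and 0.35 in the *Cxcl12* and 0.21, 0.24 and 0.19 in the *Myc* cohort, with 0 called. Their most abundant genes per length were *Cd53* and *Laptm5*, *Plac8* and *Chil3* (which neutrophils also express), and *Cyba* and *Itgam*. The 8 macrophage genes, led by *C1qb* and *C1qa* of complement, had medians of -0.12 and -0.13, and their summed level was 95.2 to 119, 83.5 to 121, 103 to 137 and 97.1 to 143 CPM in *Cxcl12* Control, *Cxcl12* KO, *Myc* Control and *Myc* KO kidneys. The 7 T cell genes, led by *Lck* and *Cd4*, summed to 2.23 to 3.72 CPM in all kidneys and the 5 B cell genes, led by *Cd79b* and *Cd79a*, to 0.538 to 1.38 CPM. The 8 tubule genes, led by *Umod* and *Slc34a1*, had medians of -0.17 and 0.18, and their summed level was 6571 to 9522 CPM. The 5 red cell genes, led by *Hbb-bs* and *Hba-a1*, had medians of 1.17 and -0.03 with 0 called.

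**Figure D5:**
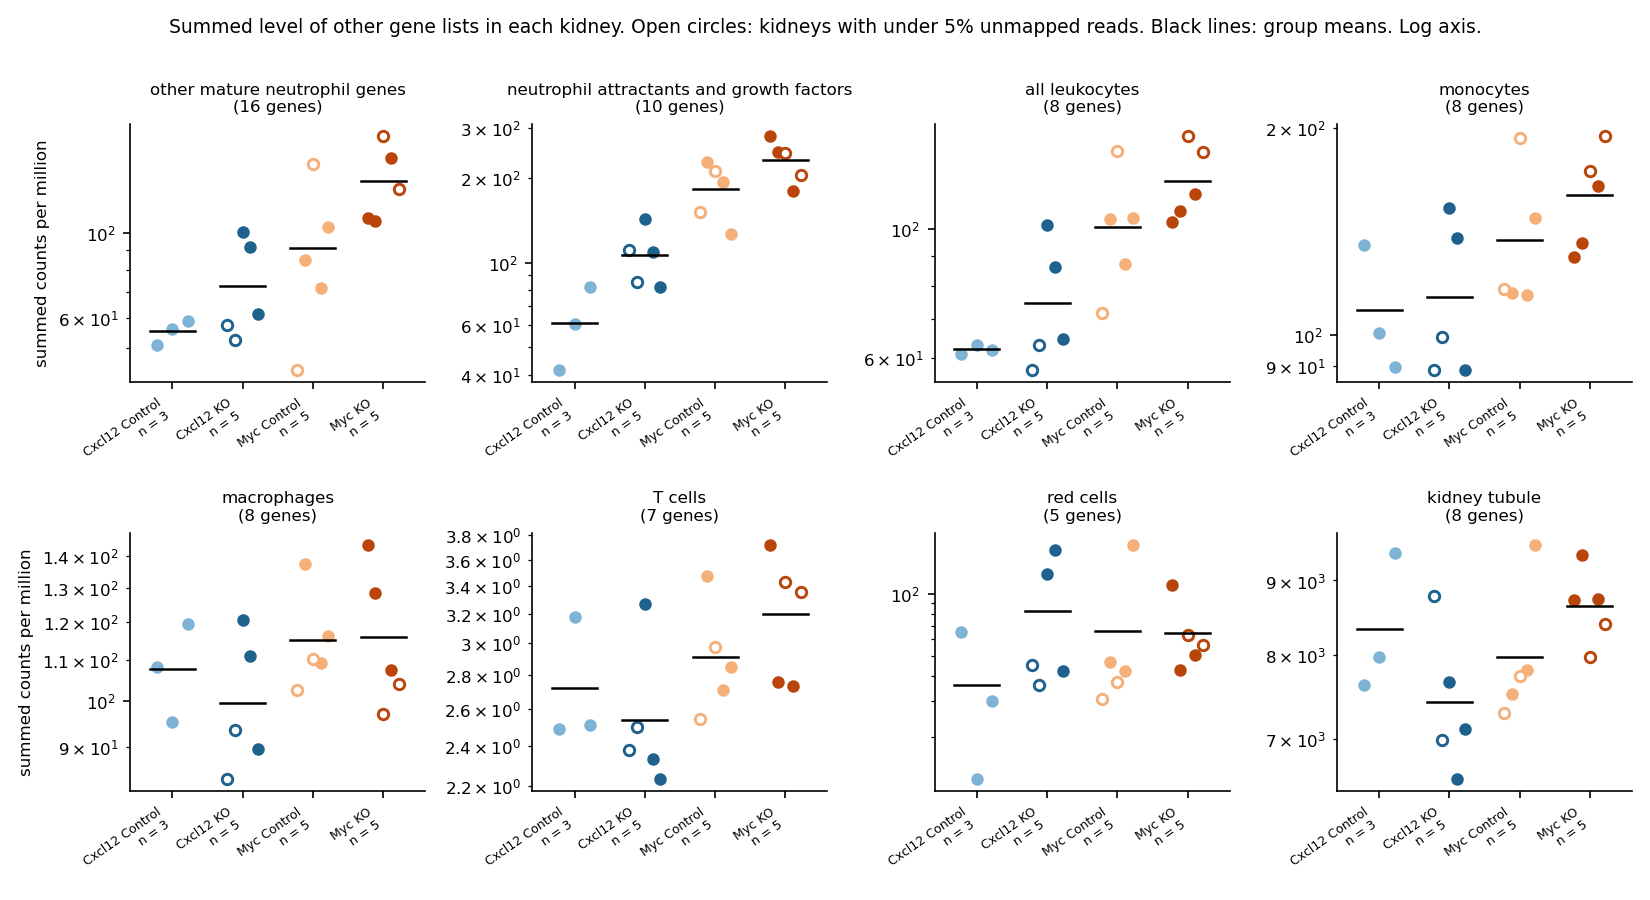
Summed CPM, on a log axis, of 8 other gene lists in every kidney by genotype group, with group means as black lines and open circles for the kidneys with under 5% unmapped reads. Group means step up from *Cxcl12* Control through *Cxcl12* KO and *Myc* Control to *Myc* KO kidneys for other mature neutrophil genes (55.3 to 136 CPM), attractants (61.3 to 231 CPM), all leukocytes (62.1 to 121 CPM) and monocytes (108 to 159.5 CPM), and those of macrophage genes lie between 99.6 and 116 CPM. The mature neutrophil sum includes *G0s2*, which is also expressed outside neutrophils, with group means of 39.6, 30.7, 26.8 and 26.6 CPM in the same order.

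The genes most like the members were searched among 13759 others with a mean of at least 1 CPM, by the Pearson r of centred log2 CPM over 18 kidneys with the mean standardized value of the 10 members. Among the highest were *Il1r2* (r = 0.95), *Srgn* (0.94), *Cxcr2* (0.94), *Samsn1* (0.92), *Alox5ap* (0.92), *Nck2* (0.91), *Selplg* (0.91), *Entpd3* (0.91) and *Mxd1* (0.91). The lowest r of a member with this mean was -0.07, so likeness to the mean is not likeness to every member. *Cxcr2* is the receptor of CXCL1 and CXCL2, *Selplg* (the P-selectin ligand) serves rolling on endothelium, *Alox5ap* serves leukotriene synthesis, and *Srgn* encodes the proteoglycan core of granules. *Srgn* measured 37.9 ± 4.00 CPM (SD, n = 3) in *Cxcl12* Control, 64.6 ± 14.5 (n = 5) in *Cxcl12* KO, 83.8 ± 27.3 (n = 5) in *Myc* Control and 119 ± 22.3 (n = 5) in *Myc* KO kidneys. *Cxcr2* measured 1.92 ± 0.702, 6.55 ± 4.81, 9.92 ± 6.79 and 18.1 ± 5.90 CPM in the same groups. In the *Cxcl12* cohort 8 of these 9 genes were tested, all but *Entpd3*, with 0 called (edgeR, lowest adjusted p = 0.109), and in the *Myc* cohort all 9 were tested with 0 called (edgeR, lowest adjusted p = 0.0968). Over the lists, the median r with the members was 0.82 for other mature neutrophil genes, 0.78 for phagocyte integrins and NADPH oxidase and 0.77 for other specific granule genes. It was 0.70 for platelets and 0.69 each for all leukocytes, monocytes and attractants. Lower medians were 0.40 for red cells, 0.17 for macrophages and -0.09 for tubule genes, beside -0.02 for all genes compared.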

How the data were processed

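Whole-kidney RNA-seq was made from 18 mice in 4 genotype groups, by the labels. Per the labels and methods, the authors trimmed reads with Trimmomatic 0.32 and aligned them to GRCm38 with STAR 2.4.0, and they deposited raw counts per gene, not normalized. Column 2, which ignores strand, was used. Gene names, positions and exon lengths came from GENCODE vM21 and promoters from RefSeq (GRCm38.p6). Each cohort was fitted alone with edgeR 4.0.16 (filterByExpr, TMM, quasi-likelihood F-test, Benjamini-Hochberg over all genes tested) in R 4.3.3. Differences between cohorts and between controls came from a fit over 18 kidneys. Standard errors were the log2 fold change divided by the square root of F. Correlations used log2 CPM (prior count of 2) centred on groups. The pipeline was tested on simulated data. Alternatives used limma 3.58.1, DESeq2 1.42.0, other scalings, no filter, a term for under 5% unmapped reads, a replicate block and leaving out kidneys. Within groups no library was a repeat of another, since chi-square divided by its degrees of freedom was 6.31 to 76.1 over the 33 pairs within groups. Kidneys with under 5% unmapped reads were set apart after the mapping shares were seen. The study's methods name a batch correction, and the labels give no batch. Same-numbered kidneys did not deviate together in every pair, and the numbers were not treated as pairs in the reported fit. A pairing is not excluded by this.

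The members and lists were chosen with earlier results of these data known. Of the other lists, the genes named were those called in a cohort, of which there were none, and otherwise the 2 most abundant per exon length. The 10 genes most like the members, of which 1 is not reported here, and both targets were also named by rule. Further genes (*Mpo*, *Ms4a3*, *Elane*, *Ctsg*, *Camp*, *Ly6g*, *Fpr2*, *Ifitm6*, *Asprv1*) were named after their values were seen. Other steps ran in Python 3.11.15 with scipy 1.17.1, pandas 2.3.3 and numpy 2.4.6, and figures in matplotlib 3.10.9.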

Additional observations from a re-analysis of the deposited data

Results flagged for a closer look

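In the *Myc* KO group, *Fpr1* was higher in *Myc* KO 3 (4.07 CPM) than in the other 4 kidneys (2.06 to 2.51 CPM). On the log2 CPM scale with a prior count of 2 the gap to the nearest kidney was 0.712 of the range of the group, above the 95% critical value of Dixon's test for 5 samples. Of 30 groups of 5 kidneys examined, 1 was past this value, and chance alone gives about 1 in 20. *Myc* KO 3 was the highest of all 18 kidneys in 7 of the 10 members and had under 5% unmapped reads.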

How the results depend on the processing

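For *Cxcl12* KO against control, the number of members called was 0 in the reported fit, 4 without the filter on low counts, 1 with DESeq2, 6 with a term for under 5% unmapped reads, and 4 without the kidneys with under 5% unmapped reads. In the same order the shares of all genes called were 0%, 0.765%, 1.28%, 0.812% and 0.535%. The cause was not tested. The term and the exclusion both set aside the *Cxcl12* KO kidneys lowest in member RNA, since no *Cxcl12* Control kidney had under 5%. Leaving out 1 kidney gave 0 members called there, 0 to 6 for *Myc* KO against control (6 without *Myc* Control 3) and 0 to 8 between the control groups (0 without any 1 *Cxcl12* Control kidney, 1 without *Myc* Control 3). The shares of all genes called were then 0% to 0.0994%, 0.139% to 5.80% and 0.302% to 3.84%. Of single members, the *Ngp* log2 fold change for *Myc* KO was -0.18 over the kidneys with under 5% unmapped reads alone, against 0.61 in all, and that of *Ltf* for the difference of KO effects ran from -0.22 to 0.29 when 1 kidney was left out. With a replicate block, 0 of 7 members were called in the *Cxcl12* cohort (median log2 fold change 1.201) and 0 of 9 in the *Myc* cohort (0.80), where 18 genes passed in place of 246. Same-numbered kidneys had correlations of their deviations from -0.03 to 0.13 (3 pairs) and from -0.21 to 0.40 (5 pairs). Their means were 0.07 and 0.05, against -0.02 and -0.01 for differently numbered kidneys. So few pairs cannot settle whether same-numbered kidneys share more than a number. Limits are the 3 *Cxcl12* Control kidneys and the low counts of *Ngp*, *Ltf* and *Fpr1*.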

Other observations

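Lists that the report describes little or not at all gave the following values. The 6 tubular injury genes, led per exon length by *Spp1* (osteopontin) and *Clu* (clusterin), had median log2 fold changes of 0.61 (*Cxcl12* cohort) and 0.12 (*Myc* cohort). By edgeR 0 were called in either, and their median r with the members was 0.14. Their summed level was mostly *Spp1*, at a mean of 8895 of 12282 CPM in *Cxcl12* Control kidneys. All 6 had fitted values above 0 in the *Cxcl12* cohort, where *Havcr1*, named after its values were seen, had 0.10 (edgeR adjusted p = 0.928). The 5 platelet genes, led by *Pf4* and *Ppbp*, summed to 5.65 to 7.41 CPM in *Cxcl12* Control, 5.57 to 18.1 in *Cxcl12* KO, 5.24 to 15.1 in *Myc* Control and 13.1 to 21.1 in *Myc* KO kidneys, with 3 tested and 0 called in each cohort. The 5 genes of mast cells and basophils, led by *Ms4a2* and *Cpa3*, summed to at most 0.914 CPM, and *Mcpt8* had 0 counts in all kidneys. *Cxcl3*, named after its values were seen, had the largest *Cxcl12* KO value of the attractants tested, a log2 fold change of 2.88 (edgeR adjusted p = 0.177). It measured 0.323 to 0.717 CPM in *Cxcl12* Control and 0.704 to 7.62 CPM in *Cxcl12* KO kidneys. *Cxcl3* passed the filter on low counts mainly through the KO kidneys, which favoured a higher KO level, and it stays in the attractant median.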
